A study of Canis lupus familiaris with 2 samples.

Results

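The genes described here encode the ligands, receptors, inhibitors, intracellular regulators and feedback targets of the Wnt pathway. They were chosen by gene symbol, as every listed gene whose symbol begins with WNT or FZD and a digit, or with SFRP or DKK, and 21 further genes given by name, and 58 of the 23510 listed genes met this rule. The rule was set with earlier results of these data known. RNA was sequenced from MDCK cells, an established line of canine kidney epithelium that grows as columnar cells in a monolayer. The cells (40000 per insert) were plated on a semipermeable membrane, set under the column of medium on the next day, and taken at day 3, in medium with 10% serum, in the control culture below 2 cm of medium and in the pressure-loaded culture below 50 cm of medium, so that pressure in cm H2O equalled the height of the medium. Each height had 1 culture and 1 library, and the labels name no other agent in either.

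Wnt proteins are secreted lipid-modified ligands. They bind Frizzled receptors together with the co-receptors LRP5 or LRP6, which stops a cytoplasmic complex of AXIN, APC and GSK3 from marking beta-catenin for destruction, and beta-catenin then works with TCF and LEF proteins at target genes. Several of these targets, such as AXIN2, RNF43 and ZNRF3, act back on the pathway as brakes. In the kidney the pathway is best known for its part in forming tubules and for its return after injury, and other Wnt signals that do not use beta-catenin set the orientation of cells within an epithelial sheet.

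Values are FPKM, the sequenced fragments of a gene scaled for the exon length of the gene and the mapped fragments of the library, so that levels can be compared between genes as well as between cultures. A ratio always gives the 50-cm-high-medium culture over the 2-cm-high-medium culture. A gene was counted as changed when its FPKM value was above 1 in both cultures and its ratio was above 2 or below 0.5, following the wording of the study's methods. The number of genes this calls moves steeply with the minimum, from 185 of 11057 above 1 FPKM in both cultures to 730 of 13280 above 0.1 FPKM. With 1 culture per height there was no replicate error and no test. For Wnt genes above 1 FPKM in both cultures, the range that held the central 95% of the 500 genes nearest in level serves as a description. That range runs across genes, not across cultures, and 5% of genes lie outside it by construction. In bulk RNA, fewer cells with a transcript and less of it per cell cannot be told apart. Genes of low level leaned downward in the pressure-loaded culture, with a median log2 ratio of -0.16 over the 581 genes with mean FPKM values from 1 to 2 and of 0.07 over the 3441 genes above 30. The range of genes nearest in level allows for this lean. Wnt genes not above 1 FPKM in both cultures had no such range. Epithelial marker genes summed to 3689 FPKM in the control culture and 3520 FPKM in the pressure-loaded culture. KRT8 and KRT18 made up most of both sums, and of the 7 genes 3 were higher and 4 lower under pressure load. The summed markers of fibroblasts, endothelium and leukocytes were 0.926 FPKM and 0.669 FPKM, with DCN, LUM, PECAM1 and PTPRC listed at 0 in both cultures. Of the renal tubule markers, PAX8 (65.1 and 57.6 FPKM) and PAX2 (28.3 and 27.9 FPKM) were present at like levels, and the kidney cadherin CDH16 was low in both cultures (1.96 and 0.676 FPKM, ratio 0.345), as was LHX1 (0.819 and 1.05 FPKM, ratio 1.28).

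MDCK cells carried RNA for Wnt ligands, receptors, intracellular regulators and feedback targets, and none of these genes with a level above 1 FPKM in both cultures passed 2-fold between them. Of the 58 genes, 24 exceeded 1 FPKM at both medium heights, 4 were above 1 in one culture, 11 were above 0 in both without reaching 1 FPKM, 5 were listed at 0 in one culture and 14 were listed at 0 in both. None of the 24 had a ratio above 2 and none had a ratio below 0.5, where 0.389% of the 11057 genes above 1 FPKM in both cultures lay above 2 and 1.28% lay below 0.5. With the minimum lowered to 0.1 FPKM, 35 Wnt genes could be compared and again none passed 2-fold, beside 1.72% of all genes above 2 and 3.77% below 0.5. At shares this small a count of 0 in lists of this size does not set the Wnt genes apart from the others. The median log2 ratio of the 24 genes was -0.01, against 0.01 over all 11057 genes, with 11 genes higher and 13 lower under pressure load. Ratios stayed within 1.2-fold for 15 of the 24 genes, while 68.1% of all genes above 1 FPKM did so. The genes farthest from a ratio of 1 were WNT7A, WNT7B and TCF7L2 on the high side and PORCN, RNF43, TCF7 and FZD3 on the low side.

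**Figure D1:**
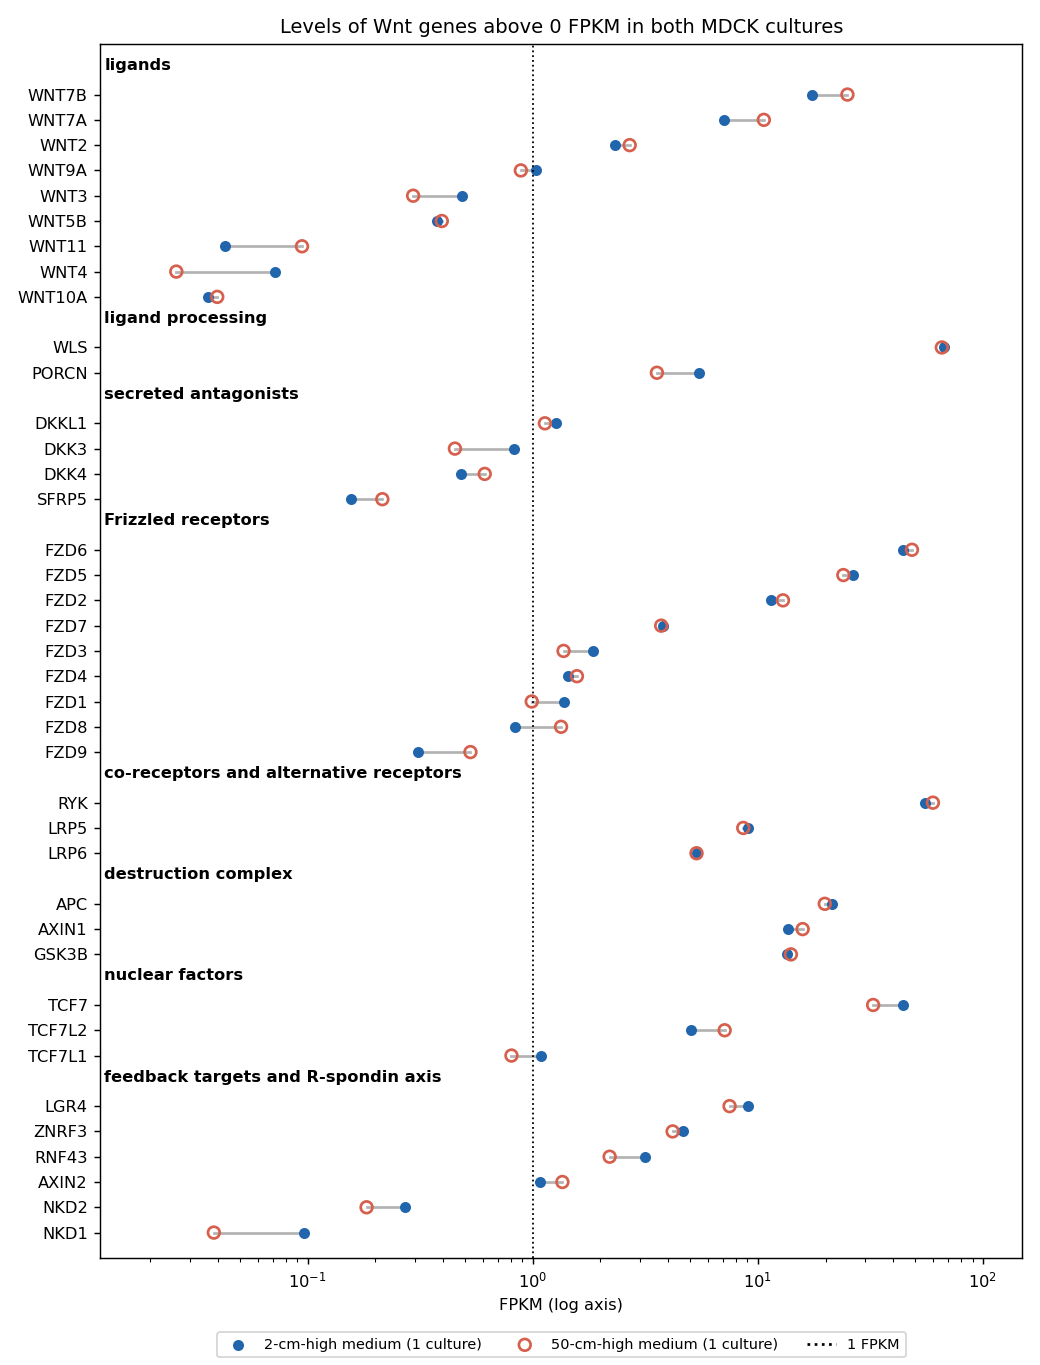
FPKM values (log axis) of the 39 Wnt genes above 0 in both cultures, ordered by role and mean level, with a filled point for the 2-cm-high-medium culture and an open circle for the 50-cm-high-medium culture (1 culture each). WLS, RYK, FZD6 and TCF7 are the genes at the top of the scale, the points of most genes above 5 FPKM nearly coincide, and the wide gaps lie mostly below 1 FPKM.

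Ligand RNA was dominated by a pair of closely related genes. WNT7B, a ligand that branching epithelia such as the collecting duct are known to make, had the highest level, 17.5 FPKM below 2 cm of medium and 25.0 FPKM below 50 cm of medium. Its relative WNT7A had 7.06 FPKM in the control and 10.6 FPKM under pressure load. Both were higher in the pressure-loaded culture, at ratios of 1.43 for WNT7B and 1.51 for WNT7A. Together they made up 84.8% of the summed ligand FPKM in the control culture and 88.6% in the pressure-loaded culture, and their sum went from 24.5 to 35.7 FPKM. The other 16 ligand genes summed to 4.40 and 4.58 FPKM, a ratio of 1.04.

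The WNT7 ratios lay near the upper edge of what genes of like level showed, and neither passed it. Among the 500 genes nearest to WNT7A in level, the central 95% of ratios ran from 0.613 to 1.509, and 14 genes had a higher ratio than WNT7A. For WNT7B the range ran from 0.731 to 1.445, and again 14 of 500 genes lay higher. WNT7A was the only one of the 24 genes above a ratio of 1.5, a level that 2.13% of all genes above 1 FPKM exceeded. WNT7B exceeded WNT7A 2.47-fold in 2-cm-high medium and 2.35-fold in 50-cm-high medium, so that the balance between them was nearly the same in both cultures.

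WNT2 was the third ligand above 1 FPKM in both cultures, with 2.32 FPKM in the control culture and 2.70 FPKM in the pressure-loaded culture. Its ratio of 1.16 was, to within 0.001%, the one that 35 reads against 33 give, since a read was worth 1.098 times as much FPKM in the pressure-loaded culture. If these are the true read numbers, counting error alone (exact binomial, 95%) leaves a ratio between 0.703 and 1.93. WNT9A stood at 1.04 FPKM below 2 cm of medium and at 0.886 FPKM below 50 cm of medium, close to the minimum on either side. WNT3 (0.486 and 0.294 FPKM) and WNT5B (0.376 and 0.395 FPKM) were the only further ligands above 0.1 FPKM. WNT5B and WNT11 are ligands usually linked to signals that do not need beta-catenin. WNT11 was listed at 0.0430 and 0.0944 FPKM, a ratio of 2.20 that 2 reads against 1 give to within 0.00439%, and WNT4, a ligand of early tubule formation, at 0.0713 and 0.0261 FPKM, a ratio of 0.366 that 1 read against 3 gives to within 0.0177%. Over all genes above 0 in both cultures, 3.15% lay above a ratio of 2 and 5.35% below 0.5, and WNT11 with WNT4 and NKD1 were the Wnt genes that did so. WNT10A had 0.0361 and 0.0397 FPKM, the ratio of 1 read against 1. WNT6, WNT8B and WNT10B were listed at 0 in the control and at 0.0282 to 0.0869 FPKM under pressure load, and WNT8A at 0.0361 FPKM and 0. Listed at 0 in both cultures were WNT1, WNT3A, WNT5A, WNT9B and WNT16. A listed 0 is not proof of absent RNA, since the respiratory chain gene ATP5O, which every such cell uses, was listed at 0 as well.

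**Figure D2:**
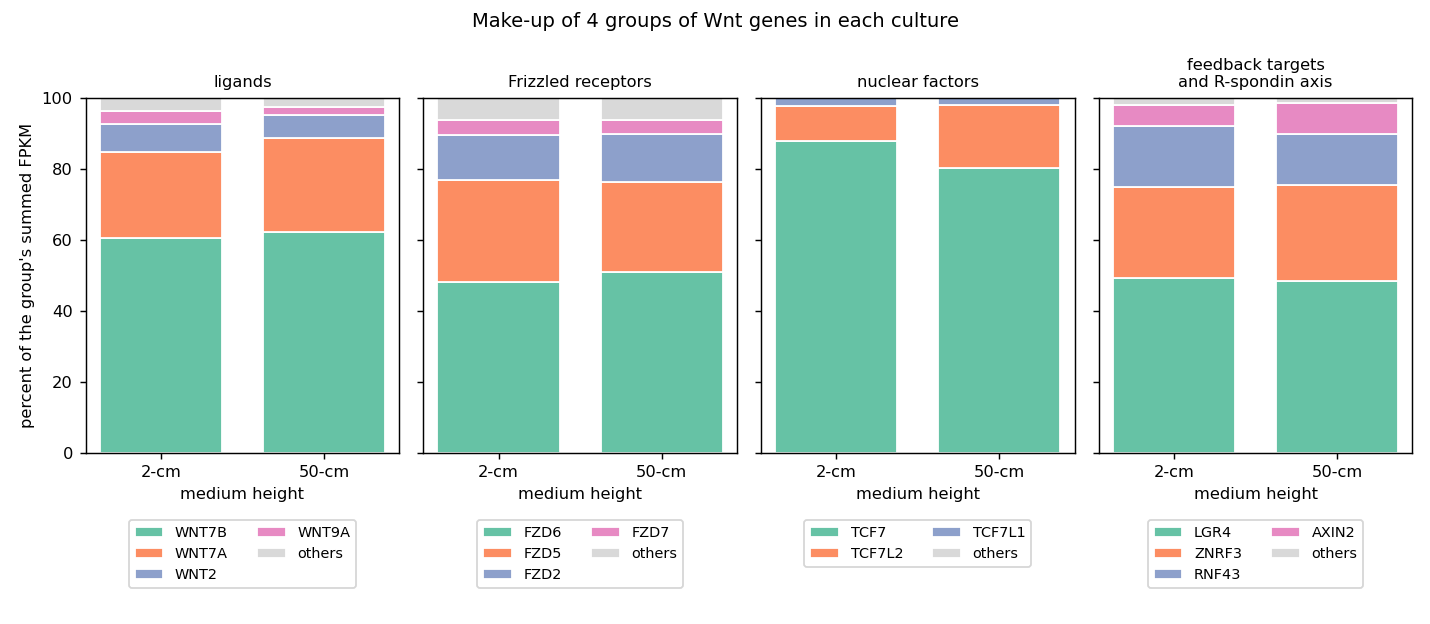
Share of the summed FPKM (percent, vertical axis) that each gene took in 4 groups of Wnt genes, with 1 bar for the 2-cm-high-medium culture and 1 for the 50-cm-high-medium culture. WNT7B with WNT7A fills most of the ligand bars (84.8% and 88.6%), FZD6, FZD5 and FZD2 fill 89.5% and 90.0% of the Frizzled bars, and TCF7L2 widens from 10.0% to 17.6% of the nuclear factor bars.

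The machinery that readies ligands for secretion differed in its members. WLS, the carrier that brings Wnt proteins to the cell surface, was the most abundant of all 58 genes, with 67.0 FPKM in the control culture and 65.7 FPKM in the pressure-loaded culture. Its level exceeded that of 86.2% of the genes above 1 FPKM, and its ratio was 0.982. PORCN, the enzyme that attaches the lipid to Wnt ligands, had 5.50 FPKM in the control culture and 3.56 FPKM in the pressure-loaded culture. Its ratio of 0.647 was the lowest of the 24 genes and the only one below 0.667, the inverse of 1.5, where 5.06% of all genes lay. Of the 500 genes nearest in level, 43 had a lower ratio than PORCN, and their central 95% ran from 0.469 to 1.63.

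Secreted antagonists of the SFRP and DKK families stood low. The only gene of this group above 1 FPKM in both cultures was DKKL1, a relative of the DKK inhibitors that was included by its symbol. It had 1.27 and 1.13 FPKM (ratio 0.893, which turned to the higher side under quantile normalization). DKK3 was at 0.822 FPKM below 2 cm of medium and 0.451 FPKM below 50 cm of medium, a ratio of 0.549 that 1 read against 2, or any multiple of these, gives. DKK4 had 0.478 and 0.612 FPKM, the ratio of 7 reads against 6. SFRP5, a decoy that binds Wnt ligands outside the cell, had 0.157 and 0.215 FPKM, the ratio of 5 reads against 4. DKK1, DKK2, SFRP1, SFRP2 and SFRP4 were listed at 0 in both cultures. The secreted Frizzled-related gene FRZB carries another kind of symbol and so was not a member, but it was far above these genes, with 29.2 FPKM in the control and 20.0 FPKM under pressure load (ratio 0.684).

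Frizzled receptors formed a graded set in which the order of the highest 4 genes was the same in both cultures. FZD6, a receptor known for its part in planar cell polarity, had 44.0 FPKM in the control culture and 48.4 FPKM in the pressure-loaded culture. FZD5 followed with 26.4 and 24.0 FPKM, FZD2 with 11.5 and 12.9 FPKM, and FZD7 with 3.78 and 3.72 FPKM. None of these 4 genes moved by more than 1.2-fold, at ratios of 1.10 for FZD6, 0.908 for FZD5, 1.12 for FZD2 and 0.986 for FZD7, the last of which turned to the higher side under quantile normalization. FZD6, FZD5 and FZD2 summed to 82.0 FPKM and 85.4 FPKM, a ratio of 1.04.

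Of the lesser Frizzled genes, 5 lay between 0.3 and 2 FPKM. FZD3 had 1.84 FPKM below 2 cm of medium and 1.37 FPKM below 50 cm of medium (ratio 0.744), the lowest ratio of the family above the minimum, where the genes of like level had a median ratio of 0.864. FZD4, the receptor for norrin as well as Wnt ligands, had 1.43 and 1.57 FPKM, to within 0.001% the ratio of equal read numbers. FZD1 went from 1.38 to 0.991 FPKM and FZD8 from 0.833 to 1.34 FPKM, so that each was above 1 FPKM in one culture. The ratio of FZD8, 1.60, was that of 19 reads against 13, for which counting error alone leaves 0.752 to 3.53. FZD9 had 0.310 and 0.529 FPKM (ratio 1.71, or 14 reads against 9, counting range 0.688 to 4.47). Both counting ranges include a ratio of 1, but they hold only for the smallest fitting read numbers. Multiples of these fit as well and would give narrower ranges, so whether counting error covers either ratio is not settled. FZD10 was listed at 0 in both cultures.

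Co-receptors were the steadiest of the groups with several members. RYK, a receptor that binds Wnt ligands through a domain unlike that of Frizzled, had 55.4 FPKM in the control and 60.0 FPKM under pressure load (ratio 1.08), over 10 times the level of LRP6. LRP5 had 9.05 and 8.62 FPKM (ratio 0.953). LRP6 had 5.36 and 5.34 FPKM, and its ratio of 0.998 was the nearest to 1 of all 24 genes. The receptor kinases ROR1 and ROR2, which carry WNT5A signals in other tissues, were listed at 0 in both cultures, as was WNT5A.

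The genes of the destruction complex differed little between the cultures. APC, the scaffold that is lost in many colon tumours, had 21.3 FPKM in the control culture and 19.9 FPKM in the pressure-loaded culture (ratio 0.931). AXIN1, the scaffold that binds both APC and GSK3, had 13.6 and 15.8 FPKM (ratio 1.17). The kinase GSK3B had 13.5 and 14.0 FPKM (ratio 1.04). The 3 genes lay well inside the range of genes of like level, which for AXIN1 ran from 0.671 to 1.45.

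Among the nuclear factors, the most abundant gene and its runner-up went opposite ways. TCF7, which encodes TCF1, had 44.1 FPKM below 2 cm of medium and 32.6 FPKM below 50 cm of medium, a ratio of 0.738. Only 12 of the 500 genes nearest in level had a lower ratio, and TCF7 was the 1 gene of the 24 outside the central 95% of its range, which ran from 0.742 to 1.46. With 5% of genes outside by construction, 1 in 24 is about the share of any list. AXIN2 and DKKL1 could not have left their ranges at their mean levels, given the minimum of 1 FPKM, so fewer than 24 genes bear on this. TCF7L2, which encodes TCF4 and is the usual partner of beta-catenin in gut and kidney epithelium, had 5.05 FPKM in the control and 7.13 FPKM under pressure load. Its ratio of 1.41 lay just inside the range of 0.570 to 1.43, with 16 of 500 genes higher. TCF7 RNA therefore exceeded TCF7L2 RNA 8.74-fold in the control culture and 4.57-fold in the pressure-loaded culture, a comparison within each library that no single scaling factor per library alters, chosen after the values were seen. TCF7L1, mostly a repressor, had 1.09 and 0.805 FPKM (ratio 0.740, or 31 reads against 46, counting range 0.453 to 1.19). LEF1 was listed at 0 in the control culture and at 0.0446 FPKM in the pressure-loaded culture.

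**Figure D3:**
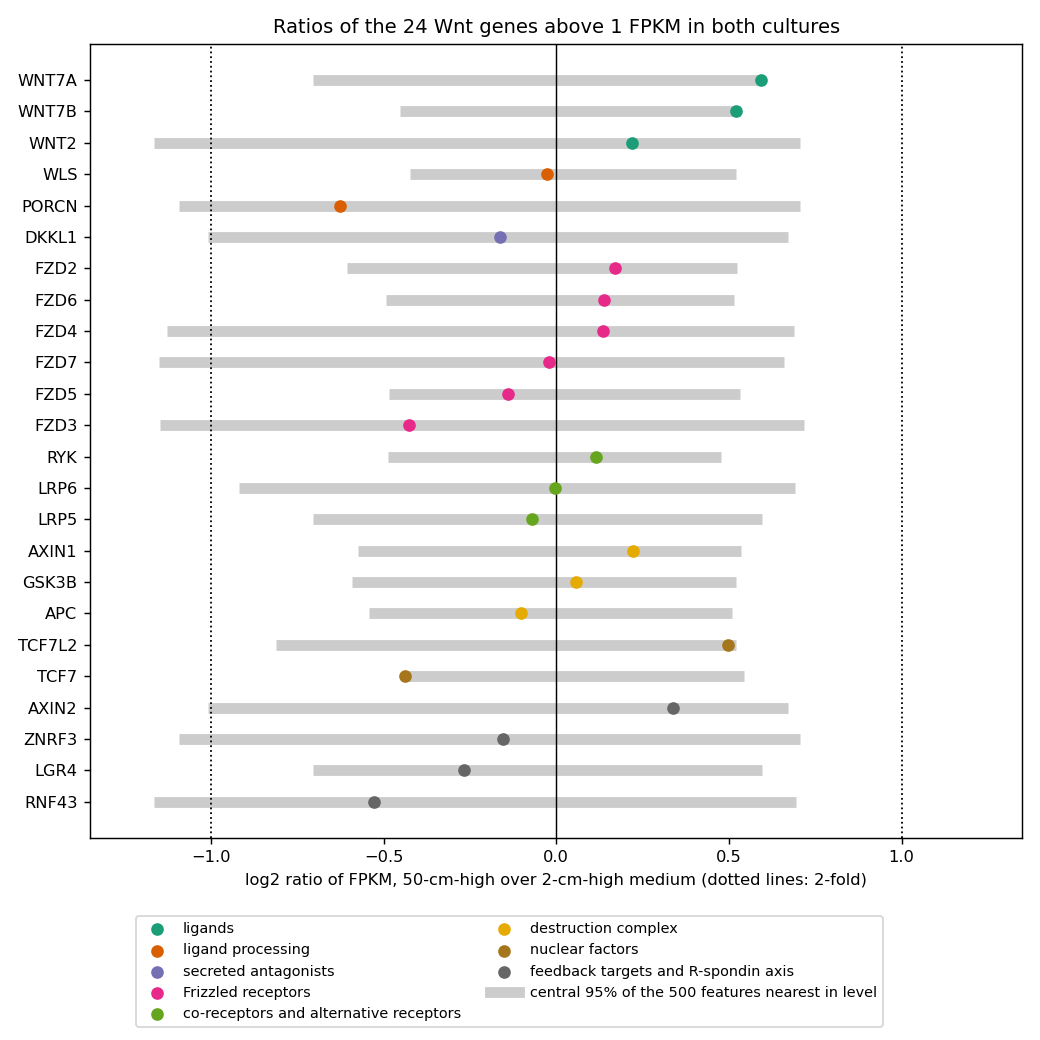
Log2 ratio of FPKM (50-cm-high over 2-cm-high medium, horizontal axis) of the 24 Wnt genes above 1 FPKM in both cultures, coloured by role, each on a grey bar that spans the central 95% of the 500 genes nearest in level. No point reaches the dotted lines at 2-fold, WNT7A, WNT7B and TCF7L2 sit at the upper ends of their bars, and TCF7 sits just past the lower end of its bar. The bars of AXIN2 and DKKL1 decide nothing, since with the minimum of 1 FPKM no ratio at their mean levels could pass the ends.

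Of the feedback targets above 0 FPKM in both cultures, AXIN2 was higher and RNF43, ZNRF3, NKD1 and NKD2 were lower under pressure load. ZNRF3 lay near the median of genes of like level, however, and NKD1 and NKD2 were at trace levels. AXIN2, the target most often used as a readout of beta-catenin activity, was low in both cultures, with 1.07 FPKM below 2 cm of medium and 1.36 FPKM below 50 cm of medium. Its ratio of 1.26 was higher than that of 444 of the 500 genes nearest in level, whose median ratio was 0.895. Only 0.561% of genes above the minimum had a lower mean level, so most of those 500 genes lay above AXIN2 in level. RNF43 and ZNRF3 encode membrane ubiquitin ligases that remove Frizzled receptors from the cell surface. RNF43 had 3.17 FPKM in the control and 2.20 FPKM under pressure load (ratio 0.693, with 97 of 500 genes lower), and ZNRF3 had 4.66 and 4.19 FPKM (ratio 0.898, with 221 of 500 genes lower). The genes nearest in level had a median ratio of 0.913 for RNF43 and of 0.933 for ZNRF3. LGR4, a receptor for R-spondins, which shield Frizzled receptors from both ligases, was the most abundant gene of the group at 9.02 and 7.50 FPKM (ratio 0.831). AXIN2 was thus higher and RNF43, ZNRF3 and LGR4 were lower under pressure load, the lower genes all inside the central 95% of genes of like level. For AXIN2 the range of 0.497 to 1.59 decides nothing. With both values required above 1 FPKM, no ratio at its mean level could have left that range. LGR5, the stem cell marker of the gut and a target of the pathway there, was listed at 0 in both cultures. The Dishevelled-binding inhibitors were at trace levels. NKD1 had 0.0966 and 0.0383 FPKM (ratio 0.397). NKD2 had 0.271 and 0.183 FPKM (ratio 0.6755, that of 8 reads against 13, counting range 0.243 to 1.76).

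Precision differed widely along these levels. Read numbers were not in the files, but a ratio that small whole numbers of reads produce shows that few reads may lie behind it. Of the 39 Wnt genes above 0 in both cultures, 12 had a ratio reached, to within 0.001%, by read numbers of at most 50, among them 8 of the 9 genes with mean levels from 0.1 to 1 FPKM and none of the 15 genes above 5 FPKM. Over all genes the share was 64.1% from 0.1 to 1 FPKM, 5.10% from 5 to 30 FPKM and 1.95% above 30 FPKM. Multiples of a pair of read numbers give the same ratio, so the pair is the smallest that fits and the counting range is the widest. For WNT5B, at the ratio of 22 reads against 23, 1 read was then worth 0.0163 FPKM in the control culture.

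Other genes of the pathway were taken from 5 lists, which were chosen with earlier results of these data known. Of the 57 above 1 FPKM in both cultures, 29 were higher and 28 lower in 50-cm-high medium, with a median log2 ratio of 0.003, and 3 passed 2-fold, all upward, beside 0.389% of all genes. In the cytoplasm, beta-catenin itself (CTNNB1) had 278 FPKM in the control culture and 235 FPKM in the pressure-loaded culture (ratio 0.844). The signal relay genes DVL1, DVL2 and DVL3 had ratios of 1.22, 1.04 and 0.946. None of the 18 cytoplasmic genes passed 2-fold, with FRAT1, which binds GSK3, at the low end (1.78 and 1.26 FPKM, ratio 0.708) and DVL1 at the high end. The 10 nuclear partners ran from BCL9, a beta-catenin co-activator (10.2 and 7.88 FPKM, ratio 0.770), to HDAC1 (37.8 and 40.8 FPKM, ratio 1.08).

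Outside the cell, 4 of 19 modulators were above 1 FPKM in both cultures, and the 4 R-spondin genes, WIF1 and SOST were listed at 0 in both. NOTUM, a secreted enzyme that strips the lipid from Wnt ligands and is itself a target of the pathway, had 10.1 FPKM below 2 cm of medium and 9.83 FPKM below 50 cm of medium (ratio 0.974). FRZB had the lowest ratio of these 4 genes, and TPBG (17.1 and 20.2 FPKM, ratio 1.18) the highest. Of the planar polarity genes, 10 of 17 could be compared and none passed 2-fold. CELSR1, an atypical cadherin that links polarity across neighbouring cells, had 3.47 and 2.13 FPKM (ratio 0.614), whereas DAAM1 had 5.58 and 6.77 FPKM (ratio 1.21). VANGL2, a membrane protein of the same polarity system, had 1.23 FPKM in the control and 0.225 FPKM under pressure load (ratio 0.183), which left it below the minimum in the pressure-loaded culture, and the related gene VANGL1 had 17.2 and 20.2 FPKM.

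Common target genes gave all 3 ratios past 2-fold, in a list that was not chosen blind to these data. CCND1, which encodes the G1 cyclin D1, had 45.7 FPKM in the control culture and 107 FPKM in the pressure-loaded culture (ratio 2.35). PLAUR, the urokinase receptor gene, had 7.64 and 18.0 FPKM (ratio 2.36), and the AP-1 subunit gene FOSL1 had 10.4 and 22.8 FPKM (ratio 2.20). MYC had 57.7 and 88.0 FPKM (ratio 1.53) and CYR61 had 103 and 171 FPKM (ratio 1.66). Of the 16 genes of this list above 1 FPKM in both cultures, 12 were higher and 4 lower, with a median log2 ratio of 0.22. Over all 11057 genes above that minimum, 52.6% were higher and the median log2 ratio was 0.01. CCND1, PLAUR, FOSL1, MYC and CYR61 are known to answer to many signals besides Wnt. SOX9 (34.0 and 30.3 FPKM, ratio 0.892), BIRC5 (156 and 154 FPKM, ratio 0.982) and JUN (24.4 and 24.7 FPKM, ratio 1.01) showed little difference. SP5, MMP7, CDX2, FGF20 and GREM1 were listed at 0 in both cultures.

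**Figure D4:**
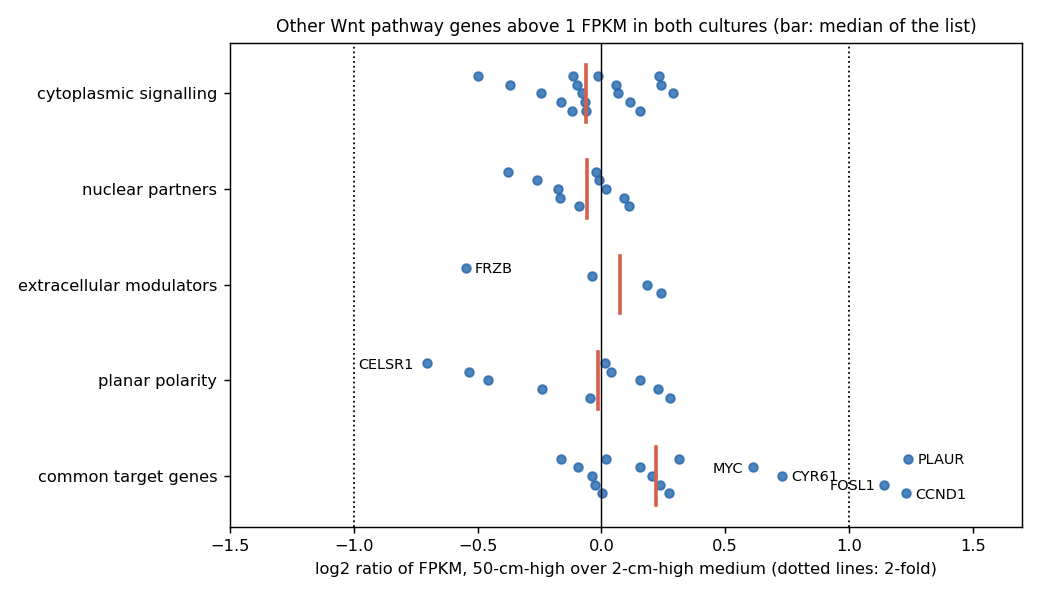
Log2 ratio of FPKM (50-cm-high over 2-cm-high medium, horizontal axis) of the other Wnt pathway genes above 1 FPKM in both cultures, with 1 point per gene in 5 lists and a vertical bar at each list's median (NOTUM is in 2 of the lists). Only PLAUR, CCND1 and FOSL1 lie past the dotted lines at 2-fold, all among the common target genes, and CELSR1 is the lowest point.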

How the data were processed

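Total RNA of MDCK cells from 1 culture per medium height was made into stranded mRNA libraries. Per the study's methods and the submitters' processing notes, the authors mapped single-end reads to CanFam3.1 with TopHat2 2.0.13, Bowtie2 2.2.3 and SAMtools 0.1.19, and calculated with Cuffnorm 2.2.1 the FPKM values that were deposited. The gene annotation and the scaling of the libraries are not given in the sources used here. FPKM is relative to the library, so a large change in abundant genes shifts all others, and the minimum in both cultures removes genes that fall out of range in one.

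Ratios were taken from FPKM values as deposited, without a pseudocount, for genes above 1 FPKM in both cultures. Groups of 1 allow no test, no leave-one-out and no p-value. Genes under 0.1 FPKM in both cultures gave the worth of a read, 9.77% higher in 50-cm-high medium (219 of 574 such genes at 1 read against 1). Depth in reads is otherwise unknown. The counting ranges (Clopper-Pearson, 95%) assume the smallest fitting read numbers and cover counting error only.

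The members, the lists and the rule for named genes were chosen with earlier results of these data known. Named were members past 2-fold, the most abundant and most extreme member of each role, feedback targets, members above 1 FPKM in one culture, and list genes past 2-fold or at the ends, and the other genes were added after their values were seen. Of the genes on the other lists, 5 had no row under their symbol (CTBP1, CTBP2, FRAT2, ID2 and TIKI1), as did the leukocyte marker CD68, and WNT2B, which had no row to match, was not analysed here. Promoter and protein sequences and genomic positions were not used here. The alternatives were other FPKM minima, pseudocounts, recentring, quantile normalization and a fold of 1.5. Scripts were tested on simulated data. Python 3.11.15, numpy 2.4.6, pandas 2.3.3, scipy 1.17.1 and matplotlib 3.10.9 were used.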

Additional observations from a re-analysis of the deposited data

How the results depend on the processing

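The count of 0 Wnt genes past 2-fold in either direction held with minima of 0.1 and 5 FPKM, with 1 FPKM required in only one culture, with pseudocounts of 0.1 and 1, after recentring and after quantile normalization. With any value above 0 accepted, 1 of 39 genes lay above 2 (WNT11, beside 3.15% of all genes) and 2 lay below 0.5 (WNT4 and NKD1, beside 5.35%), all under 0.1 FPKM. A fold of 1.5 gave 1 higher (WNT7A) and 1 lower (PORCN). The 3 other pathway genes past 2-fold, all higher, became 9 of 73 with any value above 0 (5 higher, and TLE2, KREMEN2, VANGL2 and ASCL2 lower, beside 8.50% of all genes in either direction), 6 of 68 above 0.1 FPKM (4 higher and 2 lower, beside 5.50%), 4 of 58 with 1 FPKM required in one culture (3 higher and VANGL2 lower, beside 2.95%) and 6 of 57 at a fold of 1.5 (5 higher and CELSR1 lower, beside 7.19%). The median log2 ratio of the Wnt genes ran from -0.03 after recentring to 0.07 after quantile normalization. Quantile normalization raised the median log2 ratio of the genes from 1 to 2 FPKM by 0.23 and turned 3 of 24 Wnt genes to the higher side, DKKL1 (0.09), FZD7 (0.12) and LRP6 (0.10). No paired analysis was possible because each height had 1 culture. Below 1 FPKM, depth limits every ratio given here.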
